A study of Rattus norvegicus with 6 samples.

Results

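Plasminogen is a circulating zymogen that is cut to plasmin, a broad protease that dissolves fibrin and degrades matrix proteins such as fibronectin. Urokinase (Plau) and tissue plasminogen activator (Plat) make that cut, and the urokinase receptor (Plaur) holds urokinase at the cell surface. Serpins are inhibitors that trap a protease in a covalent complex, and some members of the family no longer inhibit proteases. In the intervertebral disc, plasmin is one of the proteases linked to matrix breakdown, and it can activate pro-metalloproteinases.

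The 6 genes described are Plau, Plaur, Plat, Serpine2, Serpinb2 and Serpinf1, named individually by symbol and kept whatever their level, out of 22573 gene rows. All 6 were found in the files and all 6 passed the filter on low values, which asked for 1 FPKM or more as the average of the 6 libraries. FPKM counts fragments scaled to transcript length and to library size, so levels of different genes can be set side by side. RNA sequencing covered cells labelled nucleus pulposus, the core of the disc, from Sprague Dawley rats. There were 3 control libraries and 3 of cells that had undergone cyclic tensile strain on a Flexcell machine, at 18% elongation and a frequency of 0.2 Hz over 24 h. The treatment text stands on the controls too, so that they were unstretched rests on their class label. The labels name no genetic change and give no age. Nor do they say that replicates were separate animals or cultures, and p-values here therefore cover the spread of these libraries alone, which may be technical. The comparison asks how excessive stretching changes the cells, with the circadian clock as the stated interest of the study.

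The libraries summed to between 309497 and 348238 FPKM, and their read depth is unknown. On the leading principal component, with 78.6% of the variance, the controls lay between -32.7 and -24.1 and strain libraries between 20.6 and 35.9. The strain library closest to the controls was replicate 1 (20.6). On the next component strain replicate 3 was at 17.5 and the remaining strain libraries at -9.7 and -10.8. Of 15 nucleus pulposus markers 9 passed the filter, and their summed level was 116 to 138 FPKM in controls and 220.7 to 279.6 FPKM under strain. Of the 9, 6 were called higher by limma on log2(FPKM + 1) at an adjusted p under 0.05, 1 lower and 2 not called. Lgals3, which encodes galectin 3, made up much of the summed rise (42.4 ± 1.19 to 135 ± 27.96 FPKM, SD, n = 3), and Cdh2, N-cadherin, was the one that fell (18.1 ± 0.38 to 13.1 ± 0.52 FPKM, adjusted p = 0.0035 by limma). Acan, the core proteoglycan of the disc, stood at 24.2 to 43.3 FPKM and was not called, nor was Cd24, while the notochordal genes T (at most 0.119 FPKM), Krt19 (at most 0.071 FPKM) and Shh (listed at 0 in every library) were at or near 0. Col2a1, also under the filter, had means of 0.042 and 0.898 FPKM and was called higher by limma without a filter (adjusted p = 0.0157). Krt18 and Car12 were not called in that fit (0.597 and 0.765). Of 10 macrophage markers 4 passed, with sums of 17.6 to 24.1 FPKM in controls and 20.1 to 23.4 FPKM under strain. Most of these sums was Cd14 (14.5 ± 1.26 and 15.8 ± 0.30 FPKM, not called), and the other tested markers changed in both directions. Lyz2 rose from 0.249 ± 0.142 to 3.30 ± 1.62 FPKM (adjusted p = 0.00068 by limma), whereas Cd68 fell from 1.53 ± 0.42 to 0.633 ± 0.147 FPKM (0.0089) and Adgre1 from 3.71 ± 1.92 to 1.31 ± 0.10 FPKM (0.030). The call of Adgre1 was lost without a filter on low values (0.0619), and control replicate 2 (1.75 FPKM) lay close to strain replicate 2 (1.38 FPKM). The pan-leukocyte gene Ptprc was at most 0.049 FPKM, and Cd163 was listed at 0 throughout. Of 10 endothelial markers 1 passed, Eng, which rose 1.43-fold, and the sums were 13.4 to 14.5 and 17.5 to 21.1 FPKM, with Cdh5 and Emcn listed at 0 in every library. Under the filter, Flt1 went the other way, from 1.43 ± 0.23 to 0.484 ± 0.017 FPKM (adjusted p = 0.0034 by limma without a filter). Pecam1 (0.069 to 0.269 FPKM) and Erg (0.022 to 0.080 FPKM) were called higher in that fit. No marker of blood cells and platelets or of keratinocytes passed. Their summed levels were 0.029 to 0.653 FPKM (blood and platelets) and 0.008 to 0.112 FPKM (keratinocytes) in controls, and 0.020 to 0.703 and 0.099 to 0.137 FPKM under strain. The part of these marker changes in the results that follow was not tested.

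Start-site sequences were matched by symbol for 5 of the 6 genes in RefSeq's rat table (build GRCr8). The 250 bases before the start site are shown for the 4 of these 5 whose level changed, because 3 fell together and 1 rose. Capitals mark matches to AP-1 (TGACTCA) and the GC box (GGGCGG), each searched on both strands. The coordinates and strands are chr15:3511988-3512237, minus, for Plau, chr1:89181113-89181362, plus, for Plaur, chr13:24055771-24056020, plus, for Serpinb2, and chr10:60760899-60761148, minus, for Serpinf1.
Plau: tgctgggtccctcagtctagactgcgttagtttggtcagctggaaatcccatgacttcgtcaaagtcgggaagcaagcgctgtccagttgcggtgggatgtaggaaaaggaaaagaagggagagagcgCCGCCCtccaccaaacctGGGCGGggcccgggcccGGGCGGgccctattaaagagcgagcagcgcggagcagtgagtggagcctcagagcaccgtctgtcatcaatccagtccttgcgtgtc
Plaur: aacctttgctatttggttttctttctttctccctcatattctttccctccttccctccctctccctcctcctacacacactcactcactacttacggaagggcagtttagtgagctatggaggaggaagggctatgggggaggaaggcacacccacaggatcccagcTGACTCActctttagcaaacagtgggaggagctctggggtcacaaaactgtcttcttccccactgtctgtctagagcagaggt
Serpinb2: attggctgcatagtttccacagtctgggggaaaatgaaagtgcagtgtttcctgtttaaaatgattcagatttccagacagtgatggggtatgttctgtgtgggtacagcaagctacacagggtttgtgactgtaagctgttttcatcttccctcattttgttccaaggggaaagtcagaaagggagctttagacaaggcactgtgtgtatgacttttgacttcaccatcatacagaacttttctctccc
Serpinf1: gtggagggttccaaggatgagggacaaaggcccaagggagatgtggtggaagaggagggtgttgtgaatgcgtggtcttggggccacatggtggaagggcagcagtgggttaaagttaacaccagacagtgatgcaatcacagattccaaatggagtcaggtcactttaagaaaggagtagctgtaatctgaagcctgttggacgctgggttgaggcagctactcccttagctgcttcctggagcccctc
The Plaur window held 1 AP-1 match, 83 to 77 bases before the start, a motif found in 4.05% of 33469 windows of the same length. The Plau window held 3 GC boxes, between 122 and 82 bases before the start, and 30.5% of all windows hold at least 1. The window of Serpine2, which was not called, held 6 GC boxes, between 217 and 50 bases before the start, and no AP-1 match. The Serpinb2 and Serpinf1 windows held neither motif. Searches for CRE (TGACGTCA), the E-box (CACGTG), the core promoter box (TATAAA) and the kB consensus found no match in any of the 5 windows, the Serpine2 window included. They are held by 1.59%, 5.59%, 12.9% and 6.33% of all windows. A match describes these letters alone and is not evidence of binding.

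Under strain, both activators, the urokinase receptor and Serpinb2 fell, Serpinf1 rose, and Serpine2 was not called. That is 4 falls and 1 rise among 6 genes by limma on log2(FPKM + 1), at an adjusted p under 0.05. Over all 10180 tested genes 35.4% were called, 19% lower and 16.4% higher, with a median log2 fold change of -0.01. With every library scaled to the same summed FPKM, 57.3% of all calls were rises, against 46.3% here. Leaving out any 1 library lowered the count over all genes, from 3608 to between 2363 (without control replicate 1) and 3572 (without strain replicate 3). The 6 genes, chosen with earlier results of these data known, had a median log2 fold change of -1.61. The groups did not overlap in 5 of the 6, where the same holds for 51.9% of all tested genes. In such bulk RNA, fewer cells that express a gene and less RNA per cell cannot be told apart.

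**Figure D1:**
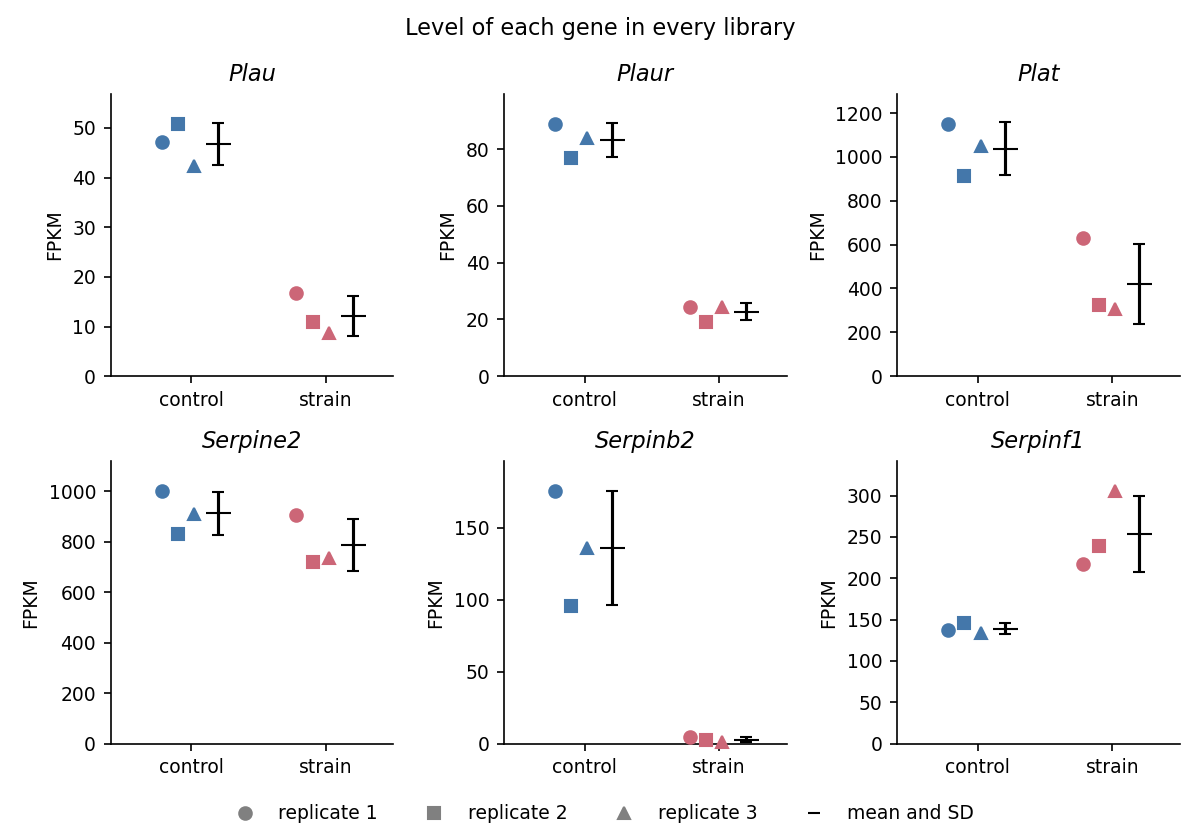
Level in FPKM (vertical axes, each from 0) of the 6 genes in the 3 control and 3 strain libraries, with symbols for the replicates and a black bar for the mean and SD of each group. The strain points lie below all controls for Plau, Plaur, Plat and Serpinb2, and above them for Serpinf1. For Serpine2 strain replicate 1 lies among the controls and the other strain libraries lie below them.

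Plau encodes urokinase, the activator that works mainly at the cell surface. Its level was 47.1, 50.8 and 42.3 FPKM in control replicates 1, 2 and 3, and 16.7, 10.9 and 8.74 FPKM in strain replicates 1, 2 and 3. Every strain library lay below every control, and strain replicate 1 was the highest of the strain libraries. The mean fell 3.86-fold, from 46.8 ± 4.29 to 12.1 ± 4.11 FPKM (SD, n = 3). On the log2(FPKM + 1) scale the difference was -1.91 ± 0.19 (SE), with an adjusted p = 0.00018 by limma, and Plau ranked 102 from the bottom among the fold changes of all tested genes.

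Plaur encodes the receptor, which is anchored in the membrane by a lipid tail and also binds vitronectin and integrins. It stood at 88.9, 76.8 and 83.96 FPKM in the controls and at 24.3, 19.2 and 24.4 FPKM under strain. The groups were far apart compared with the spread inside each, and strain replicate 1 did not stand out for this gene. The mean fell 3.68-fold, from 83.2 ± 6.06 to 22.6 ± 2.99 FPKM, a log2 difference of -1.84 ± 0.11 (SE; adjusted p = 2.5e-05 by limma). The ratio of Plau to Plaur was 0.530, 0.662 and 0.504 in the controls and 0.687, 0.568 and 0.357 under strain. These ratios of ligand to receptor overlapped between the groups.

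Plat encodes tissue plasminogen activator, whose activity is raised by binding to fibrin. It had the highest mean of the 6 in controls, at 1151, 913 and 1050.2 FPKM, which placed its mean at rank 28 of all tested genes. Under strain it was at 630.3, 323 and 307 FPKM, and its mean at rank 111. Strain replicate 1 lay between the controls and the other strain libraries, and no strain library reached a control. The mean fell 2.47-fold, from 1038 ± 119 to 420.2 ± 182 FPKM, with a log2 difference of -1.38 ± 0.25 (SE; adjusted p = 0.0037 by limma). Without strain replicate 1 the fall was 3.29-fold. Plat remained far above Plau in both groups: the ratio was 24.4, 17.96 and 24.8 in the controls and 37.8, 29.6 and 35.1 under strain, with no overlap.

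Serpinb2 encodes plasminogen activator inhibitor 2, a largely intracellular serpin that can inhibit urokinase. It stood at 175.4, 95.9 and 136.2 FPKM in the controls and at 4.72, 2.33 and 1.07 FPKM under strain. The lowest control was far above the highest strain library, although the controls themselves differed widely. The mean dropped 50.2-fold, from 136 ± 39.8 to 2.71 ± 1.85 FPKM, and 79.8-fold with strain replicate 1 left out, when the strain mean was 1.70 FPKM. On the log2(FPKM + 1) scale, which understates a fall to values this low, the difference was -5.29 ± 0.40 (SE; adjusted p = 0.00028 by limma). Among all 10180 tested genes 8 had a lower log2 fold change. Measured against its target, Serpinb2 was 3.72, 1.89 and 3.22 times the level of Plau in the controls and 0.283, 0.214 and 0.123 times under strain.

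Serpine2 encodes protease nexin 1, a secreted inhibitor of thrombin, urokinase, tissue plasminogen activator and plasmin. It stood at 999.7, 830.3 and 908 FPKM in the controls and at 905, 718 and 736 FPKM under strain. Strain replicate 1 lay inside the range of the controls, while the other strain libraries were below it. The means were 913 ± 84.8 and 786 ± 103 FPKM, and the log2 difference of -0.22 ± 0.13 (SE) did not pass (adjusted p = 0.22 by limma). Its 95% confidence interval ran from -0.51 to 0.08, which includes falls of up to that size. As a ratio to its target proteases, Serpine2 to Plau was 21.2, 16.3 and 21.5 in the controls and 54.2, 65.9 and 84.2 under strain. Serpine2 to Plat was 0.869, 0.909 and 0.865 in the controls and 1.44, 2.22 and 2.40 under strain. In these FPKM values Serpine2 was thus below Plat in every control library and above it in every strain library. Where the ratio stands against 1 depends on the transcript lengths used, which the sources used here do not give.

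Serpinf1 encodes pigment epithelium-derived factor, a secreted serpin without protease inhibitory activity that is known to restrain blood vessel growth. It stood at 137.5, 146 and 134 FPKM in the controls and at 217, 239.6 and 305 FPKM under strain. The controls lay close together and every strain library was above them, with strain replicate 3 the highest. The mean rose 1.82-fold, from 139 ± 6.35 to 254 ± 45.9 FPKM, a log2 difference of 0.85 ± 0.13 (SE; adjusted p = 0.0014 by limma). Its ratio to Plau was 2.92, 2.88 and 3.17 in the controls and 12.99, 21.97 and 34.9 under strain.

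**Figure D2:**
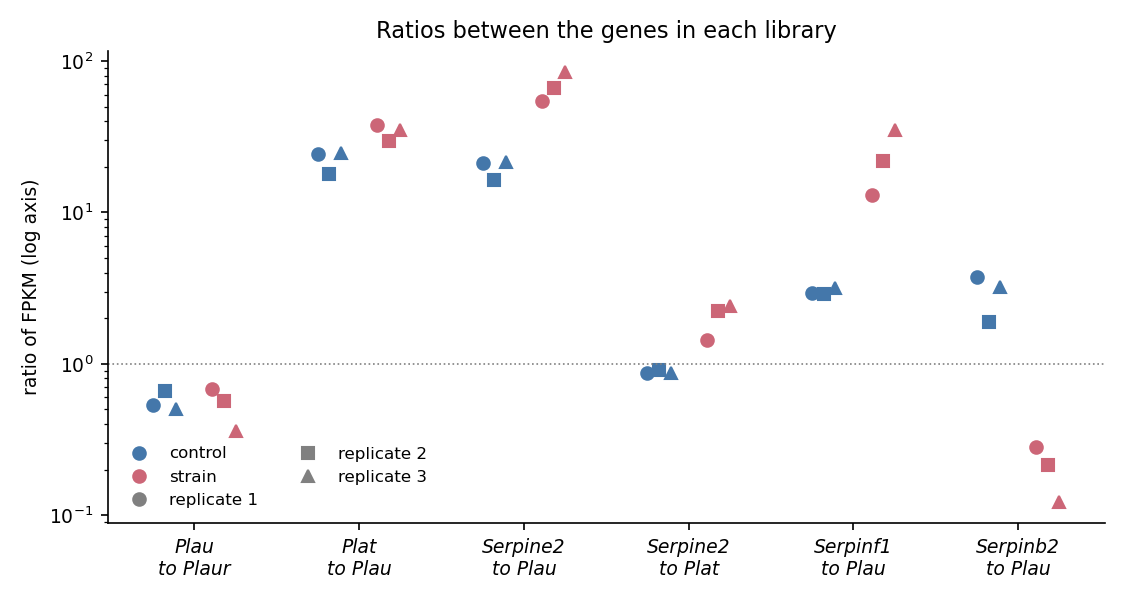
Ratio of the FPKM of the named pairs in each library (log axis), with blue for control, red for strain, symbols for the replicates and a dotted line at 1. Plau to Plaur overlaps between the groups, while Serpine2 to Plat lies at 0.865 to 0.909 in the controls and at 1.44 to 2.40 under strain.

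The order of the levels changed between the groups. In controls Plat and Serpine2 led and their ranges overlapped, followed by Serpinf1 and Serpinb2, whose ranges also overlapped, then Plaur and Plau. Under strain the order was Serpine2, Plat, Serpinf1, Plaur, Plau and Serpinb2, with no overlap between neighbours, although the lowest Plat library (307 FPKM) and the highest Serpinf1 library (305 FPKM) nearly met. Together the 6 genes held 0.637% to 0.750% of the summed FPKM in controls and 0.398% to 0.566% under strain. These orders are descriptions with no test.

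**Figure D3:**
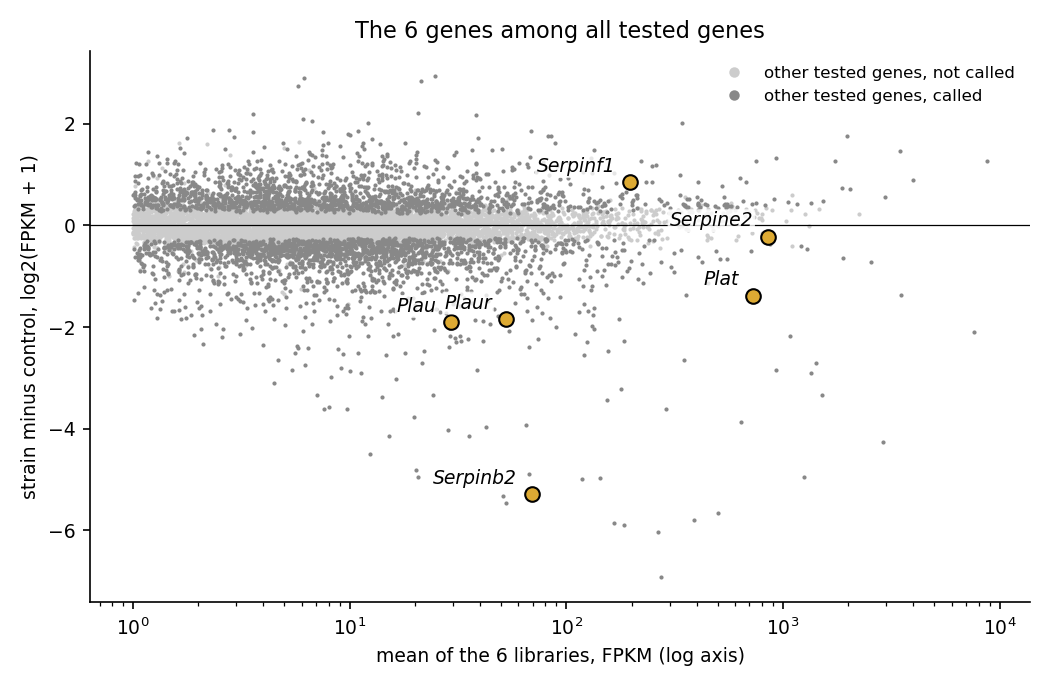
Mean level over the 6 libraries (horizontal log axis, FPKM) against the difference between strain and control on the log2(FPKM + 1) scale (vertical axis) for all 10180 tested genes in grey, with the 6 genes in yellow. Serpinb2 lies near the bottom at -5.29, and Plat and Serpine2 lie far to the right.

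The rest of the plasminogen system was described with a list of 47 genes, all in the files, of which 25 passed the filter. Of these 10 rose, 4 fell and 11 were not called, and the median log2 fold change was 0.15. Over all tested genes 16.4% rose and 19% fell, and the counts by role given next stand against those same shares. The list was chosen by role, with earlier results of these data known, and no test was made over it. Plasminogen itself (Plg) was listed at 0 in 5 of the 6 libraries and at 0.012 FPKM in the other. Factor XII (F12) and plasma kallikrein (Klkb1), which can start the cascade in blood, were listed at 0 in all controls. F12 had 0.088 FPKM in strain replicate 1 and Klkb1 0.025 FPKM in strain replicate 2, with 0 in the other strain libraries. Hgf, the growth factor related in structure to plasminogen, was at 4.46 ± 0.63 and 4.51 ± 1.46 FPKM and not called.

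Among 7 genes for plasminogen-binding surface proteins 5 were tested, of which 3 rose and 0 fell. Plgrkt, a transmembrane plasminogen receptor, was at 1.93, 2.96 and 3.24 FPKM in controls and at 5.05, 5.82 and 7.18 FPKM under strain, a 2.22-fold rise (log2 difference 0.93 ± 0.17 SE, adjusted p = 0.0029 by limma). S100a10, which with annexin A2 binds plasminogen and tissue plasminogen activator, rose 1.41-fold to 320 ± 55.6 FPKM. Its partner gene Anxa2 stood at 428 ± 32.7 and 466.5 ± 58.0 FPKM and was not called, nor was the glycolytic enzyme gene Eno1 (574.5 ± 63.7 and 641 ± 90.5 FPKM), whose protein also binds plasminogen at the surface. Krt8, a keratin and also one of the nucleus pulposus markers, rose from 4.19 ± 1.28 to 8.34 ± 2.52 FPKM. The call of S100a10 was lost without control replicate 2 or 3 (adjusted p = 0.0857 and 0.0747 by limma), and without a filter on low values (0.0518), and that of Krt8 without control replicate 1 (0.0576).

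Among 9 genes for partners of the urokinase receptor 7 were tested, and 3 fell and 1 rose. The integrin genes Itga5 and Itgb3, subunits of the fibronectin and vitronectin receptors, fell 2.95-fold and 3.19-fold. Itga5 stood at 187, 167 and 188 FPKM in controls and at 67.6, 55.0 and 60.6 FPKM under strain (log2 difference -1.55 ± 0.10 SE, adjusted p = 3.4e-05 by limma). Itgb3 stood at 11.9, 12.7 and 13.9 FPKM in controls and at 4.46, 4.56 and 3.04 FPKM under strain. Neither gene overlapped between the groups. The receptor kinase gene Egfr fell 1.95-fold to 1.23 ± 0.25 FPKM, and Itgb5, another vitronectin receptor subunit, rose 1.38-fold to 146 ± 11.7 FPKM. Itgav (65.2 ± 1.77 and 58.6 ± 11.1 FPKM), Itgb1 (489.5 ± 24.4 and 461 ± 11.5 FPKM) and Itga3 (79.98 ± 2.97 and 76.9 ± 6.94 FPKM) were not called. The vitronectin gene Vtn was listed at 0 in every library.

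Uptake receptors clear proteases and serpin complexes from the cell surface. Of 9 genes listed for such receptors, with the chaperone gene Lrpap1 among them, 7 were tested. There were 4 rises, Lrpap1 included, and 0 falls. Lrp1, the main receptor for complexes of plasminogen activators with their inhibitors, stood at 143 ± 8.17 and 153 ± 25.03 FPKM and was not called. It was called higher without strain replicate 3 (adjusted p = 0.0491 by limma). Mrc2, an endocytic collagen receptor that associates with the urokinase receptor, rose 1.63-fold, from 53.96, 66.8 and 57.5 FPKM to 90.3, 96.7 and 103 FPKM (log2 difference 0.70 ± 0.10 SE, adjusted p = 0.0012). Vldlr, a second receptor for serpin complexes, rose 1.498-fold to 15.3 ± 0.93 FPKM, Igf2r, the mannose 6-phosphate receptor, 1.38-fold to 79.5 ± 8.61 FPKM, and Lrpap1, the chaperone of this receptor family, 1.32-fold to 41.5 ± 3.92 FPKM. Sort1 (14.9 ± 2.56 and 18.7 ± 0.57 FPKM) was not called, but was called higher after quantile normalization and without control replicate 2 (adjusted p = 0.0338 and 0.0466). The calls of Igf2r, Lrpap1 and Vldlr were lost without control replicate 1, control replicate 3 and strain replicate 2, in that order (adjusted p = 0.0504, 0.0566 and 0.0554).

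Among 7 further inhibitors 1 was tested. Serping1, the C1 inhibitor, which also blocks kallikrein and factor XII, stood at 7.76, 7.47 and 7.72 FPKM in controls and at 23.6, 20.2 and 22.4 FPKM under strain. The rise of 2.88-fold was large compared with the spread inside either group (log2 difference 1.41 ± 0.09 SE, adjusted p = 2.5e-05 by limma). Under the filter, Serpinf2, the antiplasmin gene, was at 0.595 ± 0.134 and 0.206 ± 0.021 FPKM, and the neuroserpin gene Serpini1 at 0.581 ± 0.098 and 0.867 ± 0.140 FPKM. By limma without a filter Serpinf2 was called lower (adjusted p = 0.0098) and Serpini1 was not called (0.102). Of 8 fibrin and substrate genes 4 were tested. Fn1, fibronectin, rose 1.85-fold, from 2796 ± 255 to 5179.7 ± 339 FPKM (adjusted p = 0.00099). Tgfb1, whose latent product plasmin can activate, was 1.28-fold lower at 87.3 ± 12.2 FPKM. That call was lost in 7 of 14 alternatives, among them the fits without control replicate 1, 2 or 3 (adjusted p = 0.131, 0.0677 and 0.0736 by limma) and without strain replicate 1 or 2 (0.110 and 0.114).

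**Figure D4:**
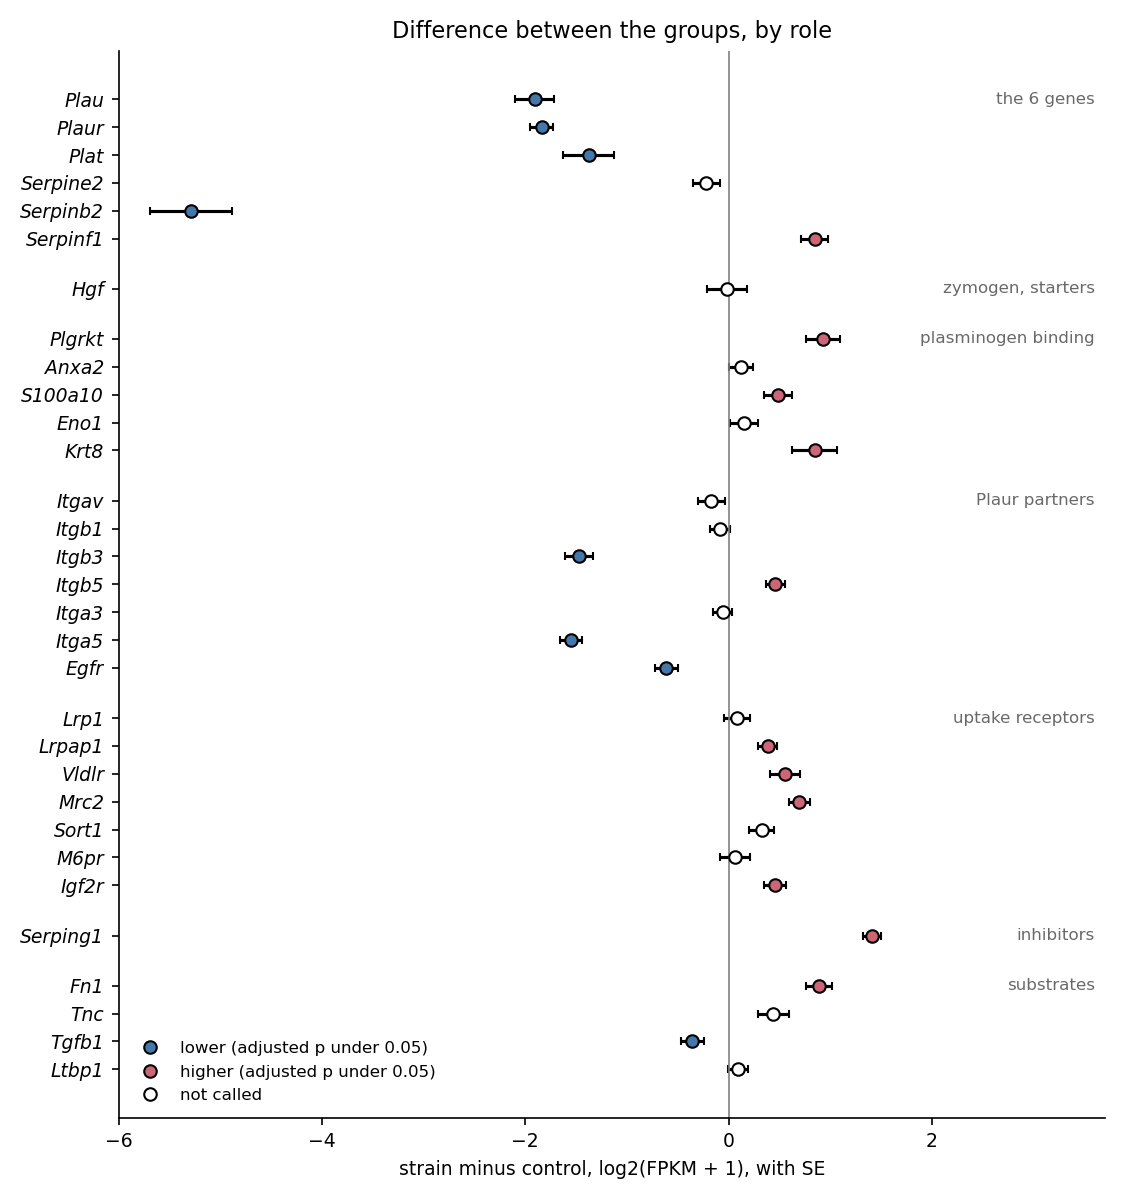
Difference between strain and control on the log2(FPKM + 1) scale (horizontal axis) with its SE for the 6 genes and the 25 other tested genes of the plasminogen system, ordered by role. Blue points fell, red points rose and white points were not called, and Serpinb2 lies farthest to the left at -5.29.

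Beyond the 3 serpins above, 38 other serpin genes were looked at, and 7 passed the filter, among them Serping1. Of the 7, 3 fell and 2 rose, beside the 19% and 16.4% of all tested genes. Serpinb3a, a clade B serpin like Serpinb2, was at 30.4, 20.1 and 29.1 FPKM in controls and at 2.64, 1.75 and 0.815 FPKM under strain, a 15.3-fold fall of the mean (log2 difference -3.37 ± 0.25 SE, adjusted p = 7.3e-05 by limma). With strain replicate 1 left out the fall was 20.7-fold. This gene has near copies in the rat genome, so how its reads were divided among them is uncertain. Serpinb9, an inhibitor of granzyme B, fell 2.48-fold to 7.27 ± 0.49 FPKM, and Serpina3n fell from 6.80 ± 1.45 to 3.39 ± 0.68 FPKM. Serpinh1, the collagen chaperone HSP47, which is not a protease inhibitor, rose 1.93-fold from 434 ± 43.3 to 837 ± 138 FPKM. Serpinb6 (23.7 ± 0.75 and 27.5 ± 3.69 FPKM) and Serpinb1a (4.66 ± 1.05 and 3.84 ± 0.58 FPKM) were not called.

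Profiles over the 6 libraries were compared by the root mean square difference of log2(FPKM + 1) values, each centred on its own mean. Provisional symbols, such as those starting with LOC or RGD, were left out. Among the remaining tested genes, those most like each of the 6 are named. For Plau they were Cyp7b1, an oxysterol hydroxylase (difference 0.130 log2 units), and Uap1, an enzyme of hexosamine synthesis (0.134). For Plaur they were Evi2a (0.072) and Phlda1 (0.084), and for Plat Esm1, a secreted proteoglycan (0.126), and the innate immune receptor gene Tlr2 (0.151). For Serpinb2 they were the arginine synthesis enzyme gene Ass1 (0.206) and the stromelysin gene Mmp10 (0.291). For Serpine2 they were Nmnat3 (0.051) and Prr5l (0.052), and for Serpinf1 Mical1 (0.049) and Esyt1 (0.058). Nmnat3 (1.62 FPKM in controls and 1.30 under strain), Prr5l (1.70 and 1.21) and Mical1 (2.53 and 5.65) had low levels. At such levels the log2(FPKM + 1) scale shrinks differences, so their likeness depends in part on the pseudocount. Within the 6 genes the nearest pair was Plau and Plaur (0.287), followed by Plau and Plat (0.324). Serpinb2 differed least from Plau (1.72 log2 units) and more from each of the others. The 6 points of each profile share the same libraries, and the differences between the groups dominate them, so this is a description with no test.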

How the data were processed

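RNA of 3 control and 3 strain libraries was sequenced on an Illumina protocol, per the labels' protocols. The authors deposited 1 value per gene symbol and library, taken as FPKM because the values are not whole numbers and the submitters' processing notes name Cufflinks. Those notes also name cutadapt 1.9.3, HISAT2 2.0.4, Cuffdiff 2.2.1 and DESeq, without order or role, and the human build hg19, although 85.1% of the symbols matched the rat gene table of GRCr8. The annotation and any library scaling are not given in the sources used here, and FPKM keeps no read totals: between 2.56% and 10.5% of low genes shared the most frequent ratio of a library pair (within 0.01 log2 units), too few to recover reads.

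Of 22601 rows, 27 had symbols turned into dates and 1 was malformed, which left 22573. Genes averaging 1 FPKM or more were tested on log2(FPKM + 1) with limma 3.58.1 (R 4.3.3; trend and robust moderation, two-sided, Benjamini-Hochberg over 10180 genes, threshold 0.05). The fit was tested on 5 simulated sets of normal values with 200 changed genes each. That is far fewer changed genes than the 3608 called here, so the test does not cover this setting. Folds are ratios of mean FPKM.

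The members and lists were chosen with earlier results of these data known. Named genes were the members, list genes and other serpins that passed, uncalled binding, uptake and inhibitor genes averaging 10 FPKM or more, and the 2 nearest profiles per member. Plg, F12, Klkb1, Hgf, Vtn, Serpinf2, Serpini1, Serpinb6 and Serpinb1a were added after their values were seen. Tnc and M6pr, also outside this rule, are named only for their changes between the alternatives. Some genes of the pathway are not reported here. Alternatives changed the pseudocount, filter, normalization, moderation, block or libraries.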

Additional observations from a re-analysis of the deposited data

How the results depend on the processing

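Each of the 6 genes kept its direction and its side of the threshold in 14 alternatives: pseudocounts of 0.1 and 0.5, no filter, a filter at 5 FPKM, quantile normalization, equal summed FPKM, limma without trend or robust moderation, a replicate block, and each library left out. The adjusted p by limma stayed at or under 0.024 for the 5 called genes and was 0.106 at its lowest for Serpine2. With single libraries left out, the count of genes called over all tested ranged from 2363 to 3572, and the other plasminogen system genes called from 11 to 15. The labels do not say whether replicate numbers pair the libraries. Deviations from the group means correlated at 0.0325, 0.108 and -0.116 for same-numbered libraries, against -0.21 to 0.12 for the others. With so few libraries these values cannot decide whether a pairing exists. The replicate block gave 3116 genes called, 5 of the 6 genes and 13 plasminogen system genes, and Tgfb1 lost its call (adjusted p = 0.0592).

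Of 31 other tested genes, 18 kept direction and call in all alternatives, 6 lost a call and 4 gained one in at least 1. Tnc (493 ± 107 and 660 ± 32.6 FPKM) was not called in the main fit (adjusted p = 0.0525 by limma). It was called higher with equal summed FPKM (adjusted p = 0.0437) and without control replicate 2 (0.0119). Serpinb6 was called higher with equal summed FPKM (adjusted p = 0.0478). Direction turned in 3 uncalled genes, whose adjusted p by limma was 0.185 or more in every alternative. The brackets that follow hold log2 differences. Hgf turned under quantile normalization (0.024) and equal summed FPKM (0.032), and with libraries left out (-0.16 to 0.22). Itga3 turned under quantile normalization (0.018) and with libraries left out (-0.12 to 0.0082). M6pr turned with libraries left out (-0.045 to 0.19). The cause was not tested. Unknown depth leaves low values, such as Serpinb2 under strain, without a counting interval.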
